A study of Homo sapiens with 12 samples.

Results

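Kinetochores are the protein assemblies by which chromosomes hold on to spindle microtubules, and 41 genes that build or guard them were followed in A375 cells, an established human melanoma line. They were taken by name from a table of 26475 genes as a list of centromere, kinetochore, spindle checkpoint and chromosomal passenger genes. All 41 passed the filter on low counts and are among the 15443 genes tested. The cells were grown in medium with serum and exposed for 24 h to DMSO alone, the solvent of the compounds, or to 1 µM XL413, an inhibitor of the replication kinase CDC7, or to 1 µM GSK343, an inhibitor of the histone methyltransferase EZH2, or to both compounds at 1 µM each, which is called the combination here. Each of the 4 groups has 3 libraries of poly-A RNA, described in the labels as biological replicates; all come from 1 cell line, at 1 dose and 1 time, and bulk RNA does not tell more transcript per cell from a larger share of cells in mitosis or G2.

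In the cell, centromeres are marked by nucleosomes that hold CENPA in place of histone H3. On this chromatin sits the constitutive centromere-associated network, which carries the outer kinetochore, whose NDC80 complex grips microtubules. The spindle checkpoint holds anaphase back until every kinetochore is attached, and the chromosomal passenger complex with the kinase Aurora B releases wrong attachments. Many of these genes are transcribed mainly in G2 and mitosis, through promoters in which a CHR element (bound by the DREAM repressor and by activators with MYBL2 and FOXM1) and CCAAT boxes (bound by NF-Y) are common, while CENPB and others vary less over the cycle.

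Promoter sequences are shown to describe these genes, and whether promoter motifs have a part in the XL413 results was not tested. RefSeq (GRCh38.p14) promoters were matched for 34 of the 41 genes, 38 promoters in all. The 7 printed here belong to genes that passed the test in an XL413 comparison, in the fit of all libraries or in the one without GSK343+XL413 replicate 2, and have at least 120 bases before the start that no GENCODE exon covers. Each line gives up to 150 such bases nearest the start, read 5′ to 3′ on the strand of the gene. Capitals mark the letters TTTGAA or TTCAAA (the CHR on either strand) and CCAAT or ATTGG (the CCAAT box on either strand); no marked letters belong to both.
CENPA, chr2:26785847-26785996, plus strand: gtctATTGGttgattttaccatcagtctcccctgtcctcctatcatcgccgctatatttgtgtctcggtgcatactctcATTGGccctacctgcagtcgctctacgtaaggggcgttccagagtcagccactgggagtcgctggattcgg
HJURP, chr2:233854567-233854716, minus strand: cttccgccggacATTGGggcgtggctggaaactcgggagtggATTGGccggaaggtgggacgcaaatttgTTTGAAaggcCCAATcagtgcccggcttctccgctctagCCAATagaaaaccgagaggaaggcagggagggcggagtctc
SKA2, chr17:59155270-59155419, minus strand: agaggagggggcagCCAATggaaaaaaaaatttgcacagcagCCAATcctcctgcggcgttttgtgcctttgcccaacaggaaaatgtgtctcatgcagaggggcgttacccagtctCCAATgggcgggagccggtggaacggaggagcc
CENPF, chr1:214603045-214603194, plus strand: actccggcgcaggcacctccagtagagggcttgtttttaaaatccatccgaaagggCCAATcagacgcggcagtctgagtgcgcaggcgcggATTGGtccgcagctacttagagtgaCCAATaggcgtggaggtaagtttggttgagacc
BUB1, chr2:110678115-110678264, minus strand: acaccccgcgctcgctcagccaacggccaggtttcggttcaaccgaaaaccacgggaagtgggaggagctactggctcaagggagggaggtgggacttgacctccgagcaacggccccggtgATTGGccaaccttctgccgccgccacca
INCENP, chr11:62123823-62123972, plus strand: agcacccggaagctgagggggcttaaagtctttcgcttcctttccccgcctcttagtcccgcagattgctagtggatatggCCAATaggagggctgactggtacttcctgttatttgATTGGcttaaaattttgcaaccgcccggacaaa
CDCA8, chr1:37692268-37692417, plus strand: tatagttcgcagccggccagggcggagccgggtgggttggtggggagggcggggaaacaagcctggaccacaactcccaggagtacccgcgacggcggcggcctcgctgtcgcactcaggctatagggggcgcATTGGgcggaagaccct
Among these stretches the CHR letters stand in that of HJURP, at −111 from the start. In CENPA, INCENP and CDCA8 they lie closer to the start, at −18, −10 and −23, in bases that GENCODE counts as exon and that are not printed; in CDCA8 their last base is also the first of a CCAAT box at −18. Over the 250 bases before the start, 9 of the 38 promoters (23.7%) held TTTGAA on either strand, against 9.4% of 16489 promoters of tested genes and 13.3% of all 35116 promoters. CCAAT on either strand was in 23 of 38 (60.5%), against 32.9% and 32.0%, and both motifs together were in 8 (21.1%), against 3.5% and 4.7%. Promoters of the same gene are counted separately, as those of ZWINT are. Of the genes higher in an XL413 comparison, NDC80, NUF2 and ZWILCH held neither motif in that window. GENCODE exons cover all 250 bases of it for NUF2 and ZWILCH, and the 46 nearest the start for NDC80. CENPH, BUB3 and BIRC5 had no matched promoter. CENPF and INCENP, printed above, passed the test as lower. Motif shares were not compared between genes that rose with XL413 and the rest. These matches describe letters in a window, and no binding was measured.

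The libraries held 31553205 to 39079931 expected counts, with a count for 18175 to 18488 genes. GSK343+XL413 replicate 2 stood apart: the SD over 12364 genes of its log2 distance from its group was 0.277, where the other 11 libraries had 0.134 to 0.178. That distance fell with transcript length, with a Spearman's rho across genes of −0.641 over all genes and −0.643 over the 41, so long transcripts read low in it. Length trends were not confined to it. In the DMSO, XL413 and GSK343 groups rho over all genes ran from −0.448 (GSK343 replicate 1) to 0.521 (GSK343 replicate 3). Counts of calls among the 41 are given with and without GSK343+XL413 replicate 2. Estimates of single genes are given both ways only in part. The rises of CENPA, CENPH, NUF2 and BIRC5 with the combination were smaller without it, as given below. Of the lineage markers, SOX10 was at 296 to 370 CPM (a count scaled to the size of its library) and MITF at 36.6 to 50.5, while the pigment genes PMEL, MLANA and DCT stayed at or under 1.12, 0.204 and 0.143, and TYR had no count in any of the 12 libraries. Summed markers of leukocytes (5 genes), nearly all LYZ, were 5.48 to 6.21 CPM with DMSO, 6.18 to 6.67 with GSK343, 6.67 to 7.18 with XL413 and 6.82 to 7.78 with the combination, so both groups with XL413 lay above DMSO in them too. Epithelial markers (4 genes) summed to 0.703 to 1.2; those of fibroblasts and endothelium (5 genes), mostly COL1A1, were 122 to 149 with DMSO and 134 to 158 with XL413, and GSK343 libraries ran from 80.2 to 137, those of the combination from 123 to 132. Their part in the results was not tested. The drug targets were transcribed in every group, CDC7 at means of 23.3 to 25.7 CPM and EZH2 at 87.4 to 96.8, which shows nothing of enzyme activity.

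Per kilobase of the longest transcript, CENPB stood highest with DMSO at 88.6 CPM (86.8 to 90.4 in 3 libraries). PMF1, a subunit of the MIS12 complex, followed at 74.8, ZWINT, which ties that platform to the checkpoint, at 68.5 and BIRC5 at 55.9. These 4 did not overlap one another between libraries. NUF2 at 50.7 (48.9 to 52) and CENPN at 50.1 (49.2 to 50.9) came next and could not be ordered. At the low end stood CENPC at 2.18, CENPI at 2.04 and CENPP at 0.965 CPM per kb, where CENPC and CENPI overlapped. PMF1 overlaps the readthrough gene PMF1-BGLAP on the same strand, and the longest transcript is not the length used in counting, so these levels are approximate.

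Across the 6 comparisons every change in these genes was small. The highest fold was 1.41 (CENPA, XL413 added to GSK343) and the lowest 0.667 (CENPF, the combination against DMSO). Without GSK343+XL413 replicate 2 the extremes were 1.36 and 0.77. The 17 genes described one by one are those called in either fit, the most abundant of each role and CENPF; the other 24 follow as ranges.

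**Figure D1:**
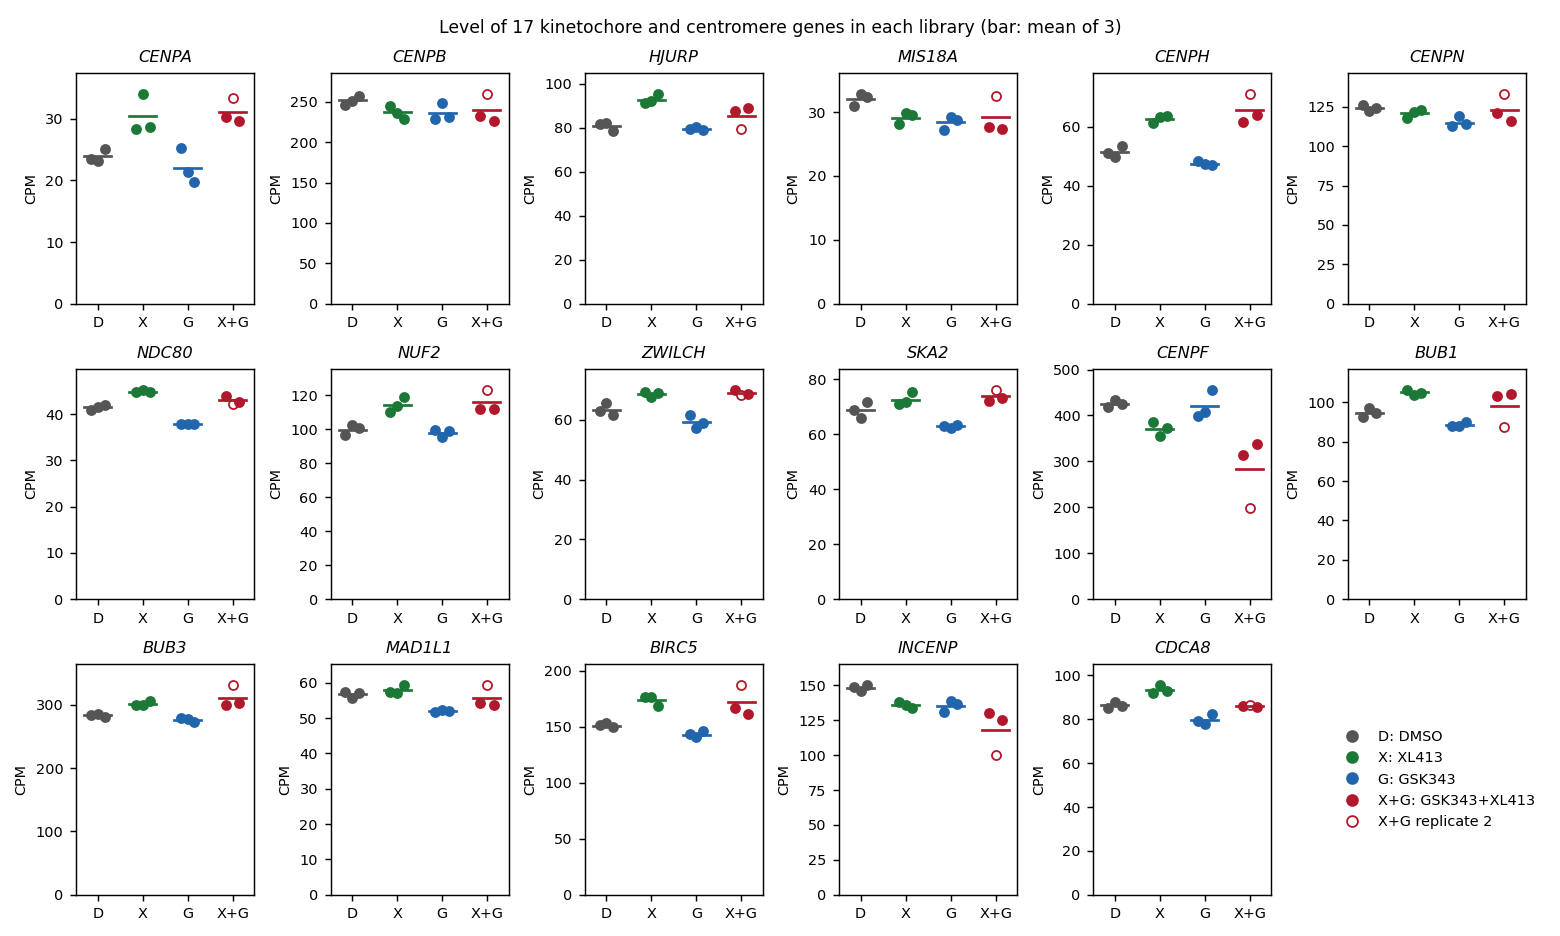
CPM of 17 genes in each library (vertical axis from 0, CPM; horizontal axis, group); points are libraries, bars group means of 3, and the open point is GSK343+XL413 replicate 2. CENPA, CENPH, NUF2 and BIRC5 lie higher in both groups with XL413 than in DMSO, and CENPF lies lowest in the combination, where the open point is at 199.4 CPM.

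XL413 alone raised CENPH, a call that held in 4 of the 12 fits that leave out 1 library (adjusted p up to 0.186). At an adjusted p under 0.05 (edgeR's quasi-likelihood test, Benjamini-Hochberg over 15443 genes) 1 of 41 genes was called higher and 0 lower, where 0.278% of all tested genes were called higher and 0.149% lower. At an unadjusted p under 0.05 there were 12 of the 41 (13.7% of all tested genes), and DESeq2 called 5 higher and 0 lower (0.803% and 0.784% of all). Estimates were above 0 for 27 genes (47.7% of all tested genes), with a median log2 fold change of 0.06, against −0.01 over all tested genes. Without GSK343+XL413 replicate 2, a library that is in neither group but enters the shared estimate of the spread, 8 genes were called higher (2.27% of 15584 genes) and 2 lower (2.59%). The 8 were CENPA, HJURP, CENPH, NUF2, BUB1, BUB3, BIRC5 and CDCA8, and the 2 were CENPF and INCENP.

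XL413 added to GSK343, that is the combination against GSK343 alone, raised 7 of the 41 genes and lowered 0, against 0.648% of all tested genes called higher and 0.337% lower. The 7 were CENPA, CENPH, NDC80, NUF2, ZWILCH, SKA2 and BIRC5, with rises of 1.13-fold to 1.41-fold, and DESeq2 called 9 higher and 1 lower (2.05% and 1.72% of all genes). Leaving out 1 library at a time gave 1 to 3 higher in 10 of the 12 fits, and 9 and 10 without GSK343+XL413 replicate 3 or 2. With only the 6 libraries compared, 0 of the 41 and 0% of all genes were called. Estimates were above 0 for 33 genes (49.3% of all genes), with a median of 0.10, against −0.002 over all genes. Leaving out GSK343+XL413 replicate 2, 10 were called higher (0.898% of all genes) and CENPF was called lower (0.661%); HJURP, BUB1 and BUB3 joined the 7.

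These are the same comparison on 2 separate sets of libraries, 6 without GSK343 and 6 with it. Signs agreed for 29 of the 41 genes, against 69.9% of all tested genes, and Pearson's r across the 41 was 0.74, against 0.22 across all; the points of each comparison share its libraries. The count of agreeing signs was near that of all genes. The values of r are not on like terms, as all genes include changes far beyond those of the 41. With XL413 alone log2 fold changes ran from −4.41 to 9.96 over all tested genes and from −0.20 to 0.34 over the 41. With replicate 2 of the combination left out the signs agreed for 34 (71.2% of all genes) and r was 0.84 (0.13 across all genes). In that fit 7 genes were called higher in both, which is 7 of the 8 and 7 of the 10: CENPA, HJURP, CENPH, NUF2, BUB1, BUB3 and BIRC5. Over all tested genes 111 were called higher in both, which is 31.4% of the 353 called with XL413 alone and 79.3% of the 140 called when it was added to GSK343. With all 12 libraries 1 of the 41, CENPH, was called higher in both, out of 1 and 7. Over all tested genes it was then 32, which is 74.4% of 43 and 32% of 100. In each fit both comparisons share 1 estimate of the spread, so their calls are not independent.

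**Figure D2:**
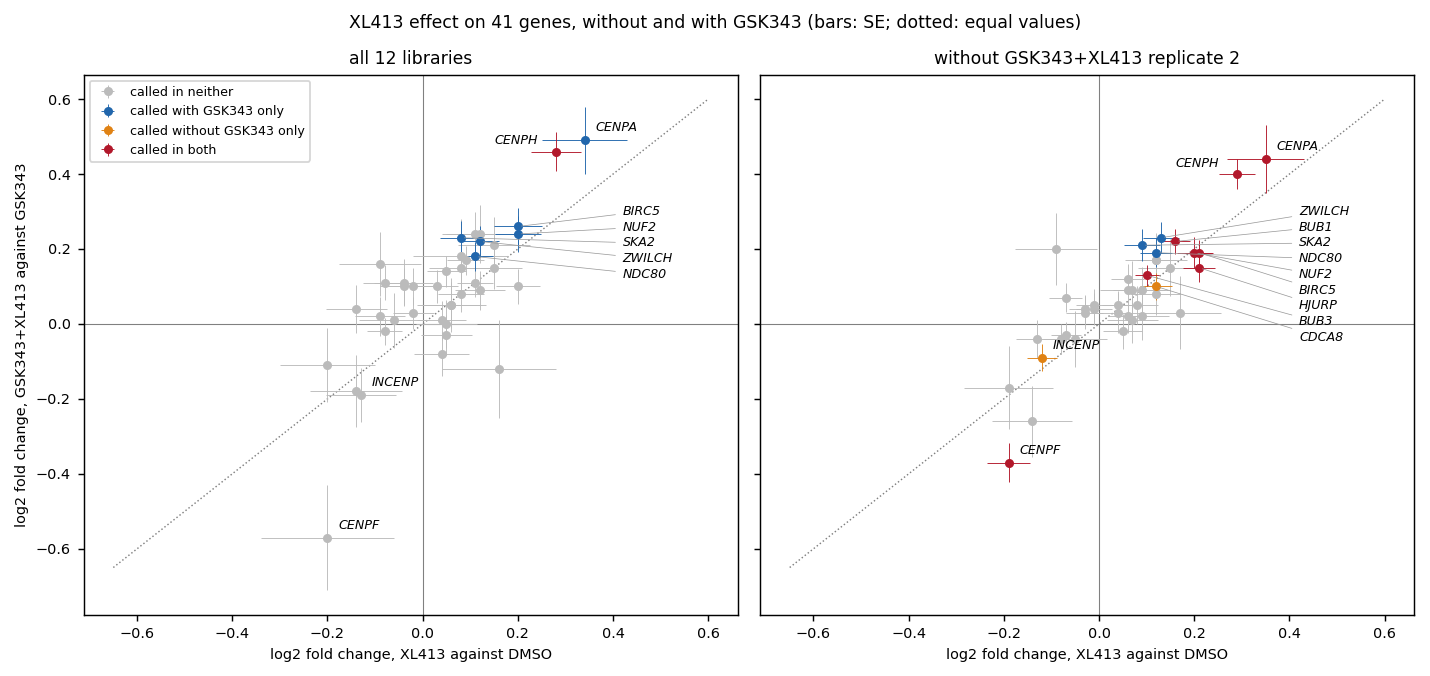
Log2 fold change of each of the 41 genes with XL413 against DMSO (horizontal) and with the combination against GSK343 (vertical), with all 12 libraries (left) and without GSK343+XL413 replicate 2 (right); bars are SE, colours give the calls and the dotted line marks equal values. CENPA and CENPH lie at the upper right and CENPF at the lower left in both.

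Among the genes of centromeric chromatin, CENPA, the histone H3 variant that marks the centromere (chr2:26764289-26801067, plus strand, hg38; 1452 nt), was at 23.5, 23.2 and 25.1 CPM with DMSO, 28.3, 34.0 and 28.7 with XL413, 25.2, 21.4 and 19.7 with GSK343 and 30.3, 33.3 and 29.6 with both compounds. All 6 libraries with XL413 lay above all 6 without it. Against DMSO the estimate for XL413 was 0.34 log2 units (SE 0.09, adjusted p = 0.124), not called, and 0.35 log2 units (SE 0.081, adjusted p = 0.0237) without GSK343+XL413 replicate 2. When XL413 was added to GSK343 the rise was 0.49 log2 units (SE 0.09, adjusted p = 0.0254). For the combination against DMSO it was 0.38 log2 units (SE 0.09, adjusted p = 0.0162), and this call needed both DMSO replicate 1 and DMSO replicate 2 (adjusted p up to 0.0724). Without GSK343+XL413 replicate 2 the rise with the combination was 0.33 log2 units against DMSO and 0.44 against GSK343, both still called. The call against GSK343 held in 8 of the 12 fits that leave out 1 library and failed when DMSO 2, GSK343 2, GSK343 3 or combination 1 was the library left out, the number being that of the replicate (up to 0.14). In the annotation CENPA shares a span of 16943 bases with SLC35F6 on the same strand, so reads could have been divided between them.

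HJURP, the chaperone that brings CENPA to centromeres (chr2:233833416-233854566, minus strand), measured 81.8, 82.2 and 78.3 CPM in the DMSO libraries, 91.0, 92.0 and 95.2 with XL413, 79.3, 80.2 and 78.7 with GSK343 and 87.6, 79.6 and 89.1 with both. The XL413 libraries lay above those of DMSO and GSK343, whereas replicate 2 of the combination fell among the untreated values. Against DMSO, XL413 gave 0.20 log2 units (SE 0.047, adjusted p = 0.0864); without GSK343+XL413 replicate 2 it was 0.21 log2 units (SE 0.033, adjusted p = 0.00295). That fit also called it higher for the combination against DMSO, 0.13 log2 units (SE 0.037, adjusted p = 0.0242), and against GSK343, 0.15 log2 units (SE 0.037, adjusted p = 0.0492).

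MIS18A, a subunit of the complex that readies centromeres for new CENPA (chr21:32268219-32279069, minus strand), stood at 31.0, 32.8 and 32.4 CPM in DMSO, at 28.1, 29.8 and 29.6 in XL413, at 27.2, 29.3 and 28.7 in GSK343 and at 27.7, 32.5 and 27.4 in the combination. Both single-compound groups lay below DMSO, and so did the combination apart from replicate 2. No comparison was called with all libraries. Without that library GSK343 against DMSO was −0.17 log2 units (SE 0.045, adjusted p = 0.0364) and the combination against DMSO −0.22 log2 units (SE 0.051, adjusted p = 0.0107). The antisense gene MIS18A-AS1 overlaps it by 1207 bases, and the strand setting of the counting is not given in the sources used here.

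CENPB, which binds a DNA box in alpha-satellite repeats (chr20:3783851-3786690, minus strand), was at 246.5, 251.4 and 256.8 CPM with DMSO, 245.4, 236.3 and 229.2 with XL413, 228.2, 249.1 and 230.7 with GSK343 and 232.4, 259.5 and 226.8 with both compounds. The groups overlapped except for XL413 below DMSO. It was called lower for the combination against DMSO only without GSK343+XL413 replicate 2, −0.13 log2 units (SE 0.041, adjusted p = 0.0484), against −0.07 log2 units (SE 0.053, adjusted p = 0.398) with it. OIP5, the partner of MIS18A, ranged from 25.0 to 31.5 CPM and was not called in any comparison.

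Of the 13 genes of the constitutive centromere-associated network, 1 was called in at least 1 of the 6 comparisons, as were 14.4% of all tested genes. CENPH, a subunit of the CENP-HIKM group that links centromeric chromatin to the outer kinetochore (chr5:69189548-69210357, plus strand; 1389 nt), measured 50.9, 49.8 and 53.4 CPM in the DMSO libraries, 61.1, 63.1 and 63.5 with XL413, 48.4, 47.3 and 46.9 with GSK343 and 61.7, 71.0 and 63.8 with both. Every library with XL413 lay above every library without it, and GSK343 alone lay below DMSO. The rise was 0.28 log2 units (SE 0.053, adjusted p = 0.0365) with XL413, 0.35 log2 units (SE 0.053, adjusted p = 0.00169) with the combination, and 0.46 log2 units (SE 0.053, adjusted p = 0.00186) when XL413 was added to GSK343. Without GSK343+XL413 replicate 2 the rise with the combination was 0.29 log2 units against DMSO and 0.40 against GSK343. Both calls of the combination held in 12 of 12 fits that leave out 1 library, with adjusted p up to 0.0148 against DMSO and 0.0131 against GSK343. The call of XL413 alone held in 4 of those fits, the ones without GSK343 replicate 3 or any 1 combination library, and adjusted p reached 0.186. Its 3 partners were not called: with XL413 added to GSK343, CENPI was at −0.12 log2 units (SE 0.13, adjusted p = 0.605), CENPK at 0.05 log2 units (SE 0.062, adjusted p = 0.664) and CENPM at 0.18 log2 units (SE 0.1, adjusted p = 0.322). CENPI stood at 4.8 CPM in GSK343+XL413 replicate 2 and at 7.0 and 6.7 in the other 2, and CENPM at 34.6 against 25.8 and 25.3.

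CENPN, which contacts the CENPA nucleosome, was the most abundant gene of the network (chr16:81006498-81033114, plus strand); its level stood at 126.3, 122.2 and 124.3 CPM in DMSO, at 117.7, 121.8 and 122.8 in XL413, at 112.9, 118.9 and 114.1 in GSK343 and at 121.0, 133.0 and 115.9 in the combination. GSK343 lay below DMSO, −0.11 log2 units (SE 0.049, adjusted p = 0.338), and other groups overlapped with DMSO. The opposite-strand gene CMC2 covers 13773 bases of it.

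Among the 14 outer kinetochore genes, 5 were called in at least 1 of the 6 comparisons with all libraries, as were 14.4% of all tested genes: NDC80, NUF2, ZWILCH, SKA2 and CENPF. NDC80, which binds microtubules through its head (chr18:2571511-2616635, plus strand), was at 41.0, 41.6 and 42.1 CPM with DMSO, 44.7, 45.3 and 44.7 with XL413, 37.8, 37.9 and 37.9 with GSK343 and 44.0, 42.2 and 42.6 with both compounds. GSK343 libraries lay below DMSO, and both groups with XL413 lay above it. Adding XL413 to GSK343 gave 0.18 log2 units (SE 0.038, adjusted p = 0.0405); leaving out any 1 library but GSK343+XL413 replicate 2 ended this call (up to 0.193). The level with GSK343 alone was −0.14 log2 units (SE 0.038, adjusted p = 0.112), and without GSK343+XL413 replicate 2 it was called lower, −0.13 log2 units (SE 0.035, adjusted p = 0.0379).

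NUF2, the partner of NDC80 in the microtubule-binding head (chr1:163266576-163355764, plus strand; 1969 nt), measured 96.4, 102.4 and 100.8 CPM in the DMSO libraries, 110.0, 113.8 and 119.1 with XL413, 99.7, 95.5 and 98.8 with GSK343 and 111.6, 123.2 and 111.9 with both. All XL413-containing libraries were above all others. XL413 alone gave 0.20 log2 units (SE 0.049, adjusted p = 0.105), and 0.20 log2 units (SE 0.037, adjusted p = 0.00647) without GSK343+XL413 replicate 2. The combination gave 0.21 log2 units (SE 0.049, adjusted p = 0.0143) against DMSO, lost without DMSO replicate 1 (0.0636), and 0.24 log2 units (SE 0.049, adjusted p = 0.0398) against GSK343, which held in 2 of 12 fits, those without GSK343+XL413 replicate 2 or 3 (up to 0.171 elsewhere). Without GSK343+XL413 replicate 2 the rise of NUF2 against DMSO was 0.17 log2 units. RGS5 lies over most of it on the opposite strand. SPC24 and SPC25, the other end of the same complex, were not called: adding XL413 to GSK343 gave −0.11 log2 units (SE 0.099, adjusted p = 0.557) for SPC24 and 0.01 log2 units (SE 0.073, adjusted p = 0.961) for SPC25.

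ZWILCH belongs to the complex that brings dynein and the checkpoint protein MAD1 to unattached kinetochores (chr15:66504959-66550128, plus strand); its level stood at 63.0, 65.6 and 61.7 CPM in DMSO, at 69.5, 67.8 and 69.1 in XL413, at 61.6, 57.3 and 58.8 in GSK343 and at 70.1, 68.3 and 68.5 in the combination. Again every library with XL413 was above every one without. Adding XL413 to GSK343 gave 0.22 log2 units (SE 0.041, adjusted p = 0.0295), kept in 3 of 12 fits, where GSK343 1, combination 2 or combination 3 was left out (up to 0.144 elsewhere). XL413 alone was not called, 0.12 log2 units (SE 0.041, adjusted p = 0.231).

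SKA2, of the SKA complex that follows shortening microtubules (chr17:59109951-59155269, minus strand), was at 68.8, 65.9 and 71.6 CPM with DMSO, 70.9, 71.6 and 75.4 with XL413, 63.0, 62.2 and 63.5 with GSK343 and 72.1, 76.2 and 73.1 with both compounds. GSK343 was the lowest group and did not overlap with the others. Adding XL413 to it gave 0.23 log2 units (SE 0.044, adjusted p = 0.0302), kept in 3 of 12 fits, where XL413 3, combination 2 or combination 3 was left out (up to 0.142 elsewhere), while the combination against DMSO was 0.10 log2 units (SE 0.044, adjusted p = 0.137). Its partners SKA1, −0.18 log2 units (SE 0.096, adjusted p = 0.31), and SKA3, 0.03 log2 units (SE 0.043, adjusted p = 0.741), were not called in that comparison.

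CENPF, a large coiled-coil protein of the outermost kinetochore layer and the longest transcript here (chr1:214603195-214664588, plus strand; 10307 nt), measured 419.4, 434.3 and 424.2 CPM in the DMSO libraries, 384.8, 354.3 and 371.7 with XL413, 399.5, 408.1 and 456.0 with GSK343 and 315.0, 199.4 and 338.8 with both. XL413 lay below DMSO, the combination lay below every other group, and replicate 2 of the combination was far under its other 2 libraries. The combination against DMSO was −0.58 log2 units (SE 0.14, adjusted p = 0.0152), a call lost without DMSO replicate 2 (0.0558). In the fit without GSK343+XL413 replicate 2 the fall was smaller but its error fell more, to −0.38 log2 units (SE 0.051, adjusted p = 0.000321). In that fit XL413 alone, −0.19 log2 units (SE 0.045, adjusted p = 0.024), and XL413 added to GSK343, −0.37 log2 units (SE 0.051, adjusted p = 0.00197), were called lower too, whereas with all libraries they were −0.20 log2 units (SE 0.14, adjusted p = 0.544) and −0.57 log2 units (SE 0.14, adjusted p = 0.0677). With a trend on transcript length removed from each of the 12 libraries, the combination was at −0.48 log2 units against DMSO (adjusted p = 0.000809) and at −0.44 against GSK343 (adjusted p = 0.00747).

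Of the 6 spindle checkpoint genes, BUB3 was called with all libraries. In at least 1 of the 6 comparisons 14.4% of all tested genes were called. BUB3, which docks the checkpoint on the kinetochore scaffold and is the most abundant gene of this role (chr10:123154277-123170467, plus strand; 7828 nt), stood at 283.6, 285.1 and 280.1 CPM in DMSO, at 299.8, 298.9 and 305.3 in XL413, at 279.4, 277.0 and 272.8 in GSK343 and at 300.1, 330.7 and 303.2 in the combination. The XL413 and combination libraries lay above DMSO and GSK343. The combination against DMSO was 0.14 log2 units (SE 0.039, adjusted p = 0.0341), kept in 5 of 12 fits, where GSK343 1, GSK343 3 or any 1 combination library was left out (up to 0.116 elsewhere). XL413 alone was called too once GSK343+XL413 replicate 2 was left out, 0.10 log2 units (SE 0.025, adjusted p = 0.0347).

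BUB1, the kinase that marks centromeric chromatin for shugoshin (chr2:110637698-110678114, minus strand; 3576 nt), was at 92.6, 97.1 and 94.7 CPM with DMSO, 106.4, 103.7 and 104.8 with XL413, 88.2, 88.0 and 90.1 with GSK343 and 103.0, 87.3 and 104.4 with both compounds. XL413 lay above DMSO, and replicate 2 of the combination lay under the DMSO range while the other 2 lay over it. With all libraries XL413 gave 0.15 log2 units (SE 0.058, adjusted p = 0.28) and the combination against GSK343 0.15 log2 units (SE 0.058, adjusted p = 0.189). Without that library these were 0.16 log2 units (SE 0.031, adjusted p = 0.0114) and 0.22 log2 units (SE 0.034, adjusted p = 0.00317), both called higher, as was the combination against DMSO, 0.13 log2 units (SE 0.034, adjusted p = 0.0164).

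MAD1L1, the scaffold on which MAD2 is made active (chr7:1815793-2233243, minus strand), measured 57.5, 55.7 and 57.2 CPM in the DMSO libraries, 57.5, 57.0 and 59.3 with XL413, 51.8, 52.4 and 52.1 with GSK343 and 54.3, 59.3 and 53.7 with both. GSK343 lay under all other groups. Its call needed the fit without GSK343+XL413 replicate 2, −0.12 log2 units (SE 0.033, adjusted p = 0.0428), against −0.12 log2 units (SE 0.044, adjusted p = 0.208) with all libraries. MAD2L1, the checkpoint effector that MAD1L1 activates, was not called; with XL413 added to GSK343 it gave 0.24 log2 units (SE 0.06, adjusted p = 0.074). The kinase TTK and the effector kinase gene BUB1B were not called in any comparison.

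In the chromosomal passenger complex BIRC5 was called higher and INCENP lower. In at least 1 of the 6 comparisons 14.4% of all tested genes were called. BIRC5, survivin, which targets the complex to centromeres (chr17:78214186-78225636, plus strand; 2711 nt), stood at 151.4, 152.9 and 150.1 CPM in DMSO, at 176.9, 176.1 and 168.5 in XL413, at 143.6, 140.7 and 146.0 in GSK343 and at 166.8, 187.0 and 161.5 in the combination. All libraries with XL413 were above all without it, and GSK343 was below DMSO. The combination gave 0.18 log2 units (SE 0.05, adjusted p = 0.0295) against DMSO, lost without any 1 DMSO library (up to 0.0994), and 0.26 log2 units (SE 0.05, adjusted p = 0.0311) against GSK343, kept without GSK343+XL413 replicate 2 or 3 (up to 0.142 elsewhere). Without GSK343+XL413 replicate 2 these rises were 0.12 and 0.19 log2 units. XL413 alone was 0.20 log2 units (SE 0.05, adjusted p = 0.105), and 0.21 log2 units (SE 0.03, adjusted p = 0.00155) without GSK343+XL413 replicate 2.

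INCENP, the scaffold that activates Aurora B (chr11:62123973-62153163, plus strand; 3964 nt), was at 148.5, 145.9 and 150.1 CPM with DMSO, 138.1, 135.7 and 133.8 with XL413, 130.8, 138.9 and 136.4 with GSK343 and 129.9, 100 and 125.1 with both compounds. Both single compounds lay below DMSO and the combination lay below both, most of all in replicate 2. The combination against DMSO was −0.33 log2 units (SE 0.073, adjusted p = 0.0126) and held in 12 of 12 fits that leave out 1 library (adjusted p up to 0.0467). Without GSK343+XL413 replicate 2 it was −0.21 log2 units (SE 0.036, adjusted p = 0.00126), with XL413 alone at −0.12 log2 units (SE 0.032, adjusted p = 0.0463) and GSK343 alone at −0.13 log2 units (SE 0.032, adjusted p = 0.0294), both called lower there and neither with all libraries.

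CDCA8, borealin, which joins BIRC5 to INCENP (chr1:37692418-37709719, plus strand), measured 85.0, 87.8 and 86.2 CPM in the DMSO libraries, 91.8, 95.5 and 93.0 with XL413, 79.2, 77.7 and 82.4 with GSK343 and 85.9, 86.7 and 85.5 with both. XL413 was the highest group and GSK343 the lowest, and the combination stood within the DMSO range. XL413 alone gave 0.11 log2 units (SE 0.038, adjusted p = 0.202), and without GSK343+XL413 replicate 2 it was called higher, 0.12 log2 units (SE 0.033, adjusted p = 0.0483).

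The other 24 genes were not called in any comparison, in either fit. With XL413 alone their log2 fold changes ran from −0.20 (SPC24) to 0.16 (CENPI), and the lowest adjusted p was 0.346. When XL413 was added to GSK343 they ran from −0.18 (SKA1) to 0.24 (CENPW, a histone-fold subunit of the network), with 0.074 as the lowest adjusted p. With GSK343 alone they ran from −0.18 (CENPP) to 0.04 (TTK) and with the combination against DMSO from −0.21 (SPC24) to 0.21 (CENPW). For several the intervals were narrow: the 95% interval of MIS12 with XL413 ran from −0.08 to 0.15 and that of TTK from −0.07 to 0.16, while that of CENPI, at 6.66 ± 0.43 CPM (SD, n = 3) with DMSO, ran from −0.11 to 0.43.

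**Figure D3:**
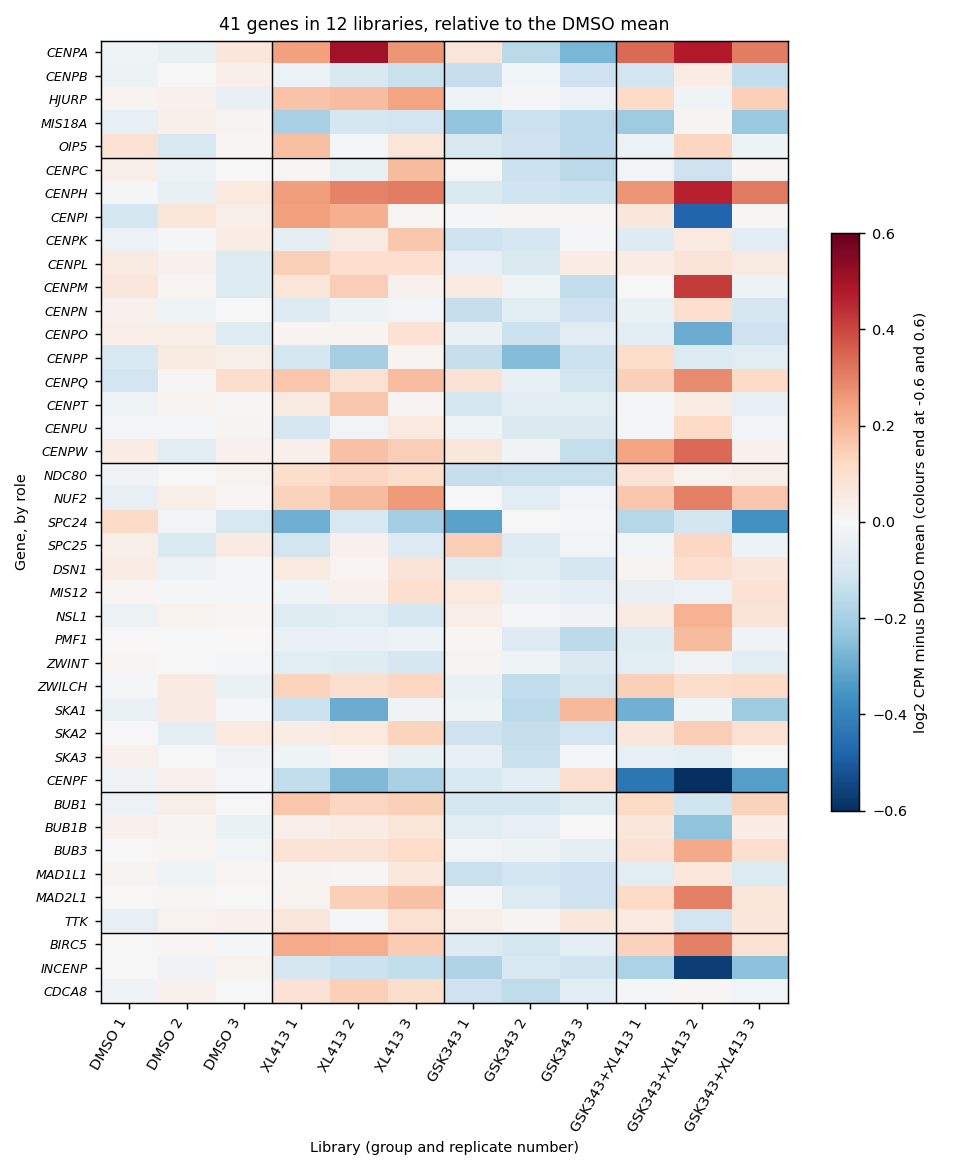
Log2 CPM of each of the 41 genes in each of the 12 libraries minus the mean of the 3 DMSO libraries (colour, ending at −0.6 and 0.6; CENPF in GSK343+XL413 replicate 2 lies beyond, at −1.09), with rows by role and columns by group. The GSK343 columns are mostly blue, CENPA and CENPH are red in every column with XL413, and CENPF and INCENP are blue in the combination.

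GSK343 alone called 0 of the 41 genes, against 1.17% of all tested genes in either direction; at an unadjusted p under 0.05 there were 7 (14.3% of all genes, so near the background), and DESeq2 called 0 as well (2.19% of all). Estimates were below 0 for 36 of the 41 (49.6% of all genes), with a median log2 fold change of −0.08, against 0.00 over all genes. Without GSK343+XL413 replicate 2, 4 genes were called lower, MIS18A, NDC80, MAD1L1 and INCENP, against 3.59% of all genes. The summed CPM of the 41 genes was 3026 to 3061 in the GSK343 libraries, 3168 to 3189 with DMSO, 3205 to 3241 with XL413 and 3101 to 3115 with the combination, and no group overlapped another. The order of the combination and DMSO turned when CENPF was left out of the sum: the sums of the other 40 genes were 2776 to 2902 with the combination, 2748 to 2754 with DMSO, 2828 to 2869 with XL413 and 2605 to 2635 with GSK343, so the combination lay above DMSO and overlapped with XL413.

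The combination against DMSO raised 5 genes, CENPA, CENPH, NUF2, BUB3 and BIRC5, and lowered 2, CENPF and INCENP. Of all tested genes 6.69% were called higher and 7.25% lower, so calls in this comparison were common. Setting GSK343+XL413 replicate 2 aside gave 8 higher (6.72%) and 4 lower (8.26%), with HJURP, ZWILCH and BUB1 added above and CENPB and MIS18A below. Because the XL413, GSK343 and combination comparisons share the DMSO libraries, they are not independent of one another.

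GSK343 added to XL413, the combination against XL413 alone, called 0 of the 41 in edgeR, against 0.784% of all tested genes in either direction, and 7 at an unadjusted p under 0.05, near the 15% of all genes. DESeq2 called 1 higher (0.816% of all). Estimates were above 0 for 20 and below 0 for 21 (52.1% and 47.9% of all genes). Without GSK343+XL413 replicate 2 edgeR called 0 again (1.62% of all genes). In that fit 31 of the 41 estimates were below 0 (50.3% of all genes), with a median of −0.03. This comparison shares no library with GSK343 against DMSO: signs agreed for 20 of the 41 genes with all libraries (66.6% of all genes) and for 32 without that library (70.9%), with r across the 41 of −0.03 and 0.09.

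The interaction, the XL413 effect with GSK343 minus that without it, called 0 of the 41 and 0% of all tested genes in edgeR, and 0% without GSK343+XL413 replicate 2; DESeq2 called 0 of the 41 (0.013% of all). At an unadjusted p under 0.05 there were 3 (2.67% of all genes), NSL1, SKA2 and CENPH, each with an adjusted p of 0.989. The difference for CENPH was 0.18 (95% interval 0.02 to 0.34), for CENPA 0.15 (−0.12 to 0.43) and for CENPF −0.36 (−0.78 to 0.05). Without GSK343+XL413 replicate 2 the differences of the 41 genes ran from −0.17 to 0.28, against −0.36 to 0.26 with all libraries. Those of the 5 centromeric chromatin genes, CENPA among them, then reached 0.09 at most. So the larger estimates for CENPA and CENPH with GSK343 present were not shown to differ from those without it.

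Transcript length moved with these results. Over the 41 genes, Spearman's rho of the combination's log2 fold change against DMSO with length was −0.37, and −0.07 without GSK343+XL413 replicate 2; over 14950 genes with a length it was −0.33, and −0.11 over 15079 without that library. For XL413 alone it was −0.14 over the 41 and −0.20 over all. CENPA and CENPH are among the shorter transcripts and CENPF is the longest. BUB3, whose longest annotated transcript has 7828 nt, rose. It read highest in GSK343+XL413 replicate 2 (330.7 CPM), the library where long transcripts read low. Which of its transcripts the cells express was not tested. With the length trend removed, the combination against DMSO stood at 0.28 log2 units for CENPA (adjusted p = 0.0108), 0.25 for CENPH (0.000611) and −0.31 for INCENP (0.00378), so all 3 were called as before.

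**Figure D4:**
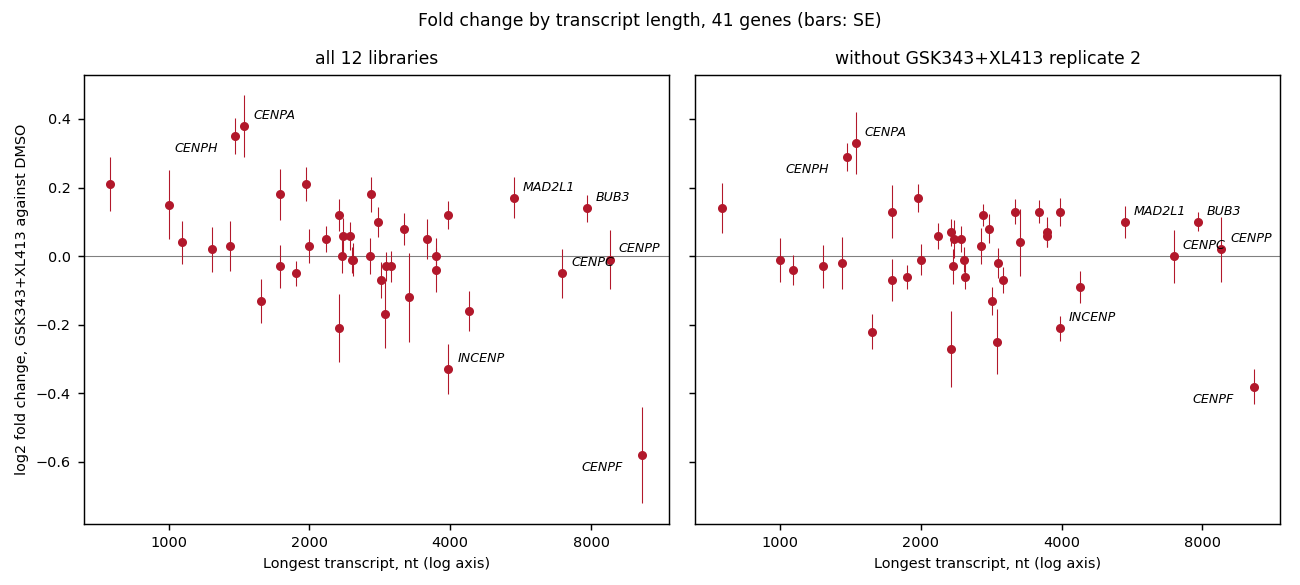
Log2 fold change of the combination against DMSO (vertical, bars SE) by the length of the longest transcript (horizontal, nt, log axis) for the 41 genes, with all 12 libraries (left) and without GSK343+XL413 replicate 2 (right). CENPF lies at −0.58 on the left and −0.38 on the right, and BUB3 stays above 0 in both.

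A list of 28 further kinetochore, centromere and checkpoint genes outside the 41 was read from the same fits. With XL413 alone 0 were called in edgeR and 6 had an unadjusted p under 0.05 (13.7% of all tested genes); without GSK343+XL413 replicate 2, KIF2C, CKAP5, CDC20 and PTTG1 were called higher (2.27% of all) and CENPE lower (2.59%). With XL413 added to GSK343, 3 were called higher (0.648% of all genes), the microtubule depolymerase KIF2C (log2 fold change 0.19), the anaphase activator CDC20 (0.23) and securin PTTG1 (0.37), and CENPE, a kinetochore motor with a long transcript, was called lower (−0.82 log2 units, SE 0.11, adjusted p = 0.00465; 0.337% of all). On the same scale CENPE was lower also with the combination against DMSO (−0.80, or −0.64 without GSK343+XL413 replicate 2) and against XL413 (−0.56, or −0.41). In the comparison with XL413 the kinase gene PLK1 was called lower too (−0.16 log2 units, SE 0.033, adjusted p = 0.0396), and 0.227% of all genes were. The combination against DMSO called ITGB3BP and PTTG1 higher and CENPE, RCC2, PLK1 and ESPL1 lower, where 6.69% and 7.25% of all genes were called. Without GSK343+XL413 replicate 2 ITGB3BP was not called (0.17 log2 units, adjusted p = 0.0844), and ESPL1 was at −0.18 instead of −0.33. That fit added CKAP5 above (6.72% of all genes) and AURKB and CENPX below (8.26%). It also called CKAP5 higher against GSK343 (0.898%) and CDC20 lower against XL413 (0.789%). GSK343 alone, which lowered 0.44% of all genes, lowered PLK1 (−0.19 log2 units, SE 0.033, adjusted p = 0.0146) and CDC20 (−0.20 log2 units, SE 0.038, adjusted p = 0.0229). Without GSK343+XL413 replicate 2 it also lowered AURKB, ERCC6L, KIF2C and ESPL1, where 3.59% of all genes were called lower. The median of the 28 with XL413 was −0.01, against 0.06 for the 41. Among 14 transcription factors of late cell cycle genes, MYBL2 was called lower with GSK343 (−0.21 log2 units, SE 0.036, adjusted p = 0.0139), with the combination against DMSO (−0.25 log2 units, SE 0.036, adjusted p = 0.00147) and with the combination against XL413 (−0.25 log2 units, SE 0.036, adjusted p = 0.00522), and no other was called with all libraries. Without GSK343+XL413 replicate 2, GSK343 alone also lowered FOXM1, E2F1 and TFDP1 (3.59% of all genes) and raised RBL2 (2.56%). That fit called RBL1 higher with XL413 alone (2.27%). With the combination against DMSO it called RBL1 and RBL2 higher (6.72%) and TFDP1 lower (8.26%), beside MYBL2. E2F1 was called lower there with the combination against XL413 (0.789%), again beside MYBL2.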

How the data were processed

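Poly-A RNA of 12 libraries was counted per gene. The deposited values are RSEM expected counts, made by the authors on hg38 with RSEM 1.2.15 after Bowtie2 2.1.0, per the submitters' processing notes; of the annotation, the strand setting and any trimming or filter, nothing is given in the sources used here. Reads that fit more than 1 gene are shared out by RSEM. The 41 genes and the related lists were chosen with earlier results of these data known. Counts were rounded and fitted in edgeR 4.0.16 (R 4.3.3) with 1 coefficient per group, TMM scaling, filterByExpr (minimum count 10, minimum total 15, which removed 11032 genes), a quasi-likelihood test with 8 residual degrees of freedom, two-sided, and Benjamini-Hochberg adjustment over all tested genes (called under 0.05). Each SE comes from the log2 fold change over the square root of its F statistic. Genes are named if called with all libraries or without GSK343+XL413 replicate 2, or if most abundant in their role, plus CENPF. Lengths and positions are from GENCODE 29; 23872 genes matched by name, 696 by an older symbol and 1905 did not. Between libraries of a group, counts differed beyond sampling noise, so none was counted as a duplicate. The alternatives were RLE size factors, no filter, DESeq2 1.42.0, a replicate block, removal of a length trend, only the groups compared, and leaving out each library. The code was tested on simulated data.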

Additional observations from a re-analysis of the deposited data

How the results depend on the processing

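No called direction reversed under any alternative. With XL413 against DMSO, 1 gene was called higher and 0 lower; the count of higher genes was 5 with DESeq2, 5 with the length trend removed, 9 with only the groups compared and 0 with the replicate block, and lower genes were 2 with only the groups compared. Calls over all genes moved too: higher were 0.278% in the fit reported, 0.803%, 1.3%, 4.53% and 0.214% in those 4, and lower 4.76% with only the groups compared. With the combination against DMSO, 5 higher and 2 lower became 2 and 0 with only the groups compared (2.21% and 2.15% of all genes, against 6.69% and 7.25%), and 4 were lower with the length trend removed (10.8% of all). With the combination against GSK343, 7 higher became 0 with only the groups compared, where 4 residual degrees of freedom remain and 0 of 15157 genes were called in either direction, and 0 lower became 1 with no filter, DESeq2 or the length trend removed. With the combination against XL413, 0 became 1 higher with DESeq2 and 1 higher and 1 lower with the length trend removed. Leaving out 1 library at a time gave 0 to 8 higher and 0 to 2 lower for XL413, 0 higher and 0 to 4 lower for GSK343, 1 to 8 higher and 1 to 4 lower for the combination against DMSO, 1 to 10 higher and 0 to 1 lower against GSK343, and 0 against XL413 and for the interaction. The replicate numbers did not pair the libraries: 4 of 18 correlations of same-numbered deviations were over 0.1 (−0.415 to 0.34) and 3 of 12 libraries correlated best with their own number. With the replicate block 5 genes were called higher and 2 lower for the combination against DMSO, and 5 higher against GSK343.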
